A study of Sparus aurata with 8 samples.

Results

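Among the 197399 features of the count table, of which 31501 are protein-coding, 10 were listed as oocyte-type transcripts and their paralogs. The label is that of the list, and a product name alone does not mark each of them as an oocyte form. They are cytoplasmic polyadenylation element-binding 1 (Cpeb1, Saurata1B005930), embryonic polyadenylate-binding (embryonic PABP, Saurata1B046200), a pair of histone RNA hairpin-binding copies (copy A, Saurata1B032948, and copy B, Saurata1B008052), factor in the germline alpha (Figla, Saurata1B051229), a pair of LIM homeobox Lhx8 copies (copy A, Saurata1B008493, and copy B, Saurata1B003222), POU domain class 5 transcription factor 1 (Saurata1B021085), growth differentiation factor 9 (Gdf9, Saurata1B054499) and the kinase Mos (Saurata1B001134). The features were listed by ID with their levels in these libraries known, so those levels are a description and carry no test. The count table gives product names but neither symbols nor positions, and the names were not checked against sequence.

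The study set ejaculated spermatozoa (SPZ_EJ) of the gilthead seabream (*Sparus aurata*) against haploid germ cells (HGC) of the testis, in 4 libraries of each. SPZ_EJ were pressed gently from the belly of adult captive males in the breeding season and were not sorted, whereas HGC, a mix of type II spermatocytes and spermatids, were sorted by size and DNA stain from testis tissue of such males. Each library came from cells of 3 males, and the number of males that the study states can be read per group or over both, so whether the same males gave pools of both groups is not settled. The RNA of SPZ_EJ was of lower integrity than that of HGC by the study's account, so cell type and RNA quality cannot be told apart. The study describes low integrity as typical of spermatozoa. From microscopy and weak or absent ribosomal RNA peaks, it held these samples to be nearly free of other cells.

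An oocyte stores maternal mRNA in a silent form and activates it by lengthening the poly(A) tail in the cytoplasm, through Cpeb1, which binds the 3' end of its target mRNAs, and through poly(A)-binding proteins. The *mos* mRNA is a classic target of this control, and the Mos kinase starts the MAPK cascade that arrests the egg in meiosis. Figla and Lhx8 are transcription factors of early oocytes, and Gdf9 is a ligand that the oocyte sends to the follicle cells around it. The seabream is a protandrous fish, whose gonad holds ovarian and testicular tissue side by side.

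Library totals were 15395220 to 17886675 counts in SPZ_EJ and 19865716 to 30645027 counts in HGC. Levels are in CPM (counts per 1000000 after TMM scaling of library sizes), as mean ± SD of 4 libraries, and ratios of means are given on the log2 scale, SPZ_EJ over HGC. At these depths 3 counts over a whole group equal 0.0357 CPM in SPZ_EJ and 0.0413 CPM in HGC. Marker lists were summed in the labelled groups, and the purity of the samples was not tested. The summed level of 43 spermatid and flagellum markers was 349 to 851 CPM in SPZ_EJ and 10899 to 14285 CPM in HGC, and that of 37 leukocyte markers was 2997 to 7351 CPM in SPZ_EJ and 501 to 655 CPM in HGC. By the edgeR test described below, 31 of 39 tested spermatid and flagellum markers were called lower in SPZ_EJ and 1 higher. Of 25 tested leukocyte markers 23 were called higher and 0 lower. Over all 21375 tested features 32.3% were called higher and 24.7% lower.

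Of the 10 features, 7 passed the expression filter, while Figla, Lhx8 copy B and hairpin-binding copy A did not. The mean was higher in SPZ_EJ for 8 features and lower for embryonic PABP and hairpin-binding copy B. In bulk RNA, fewer cells of a type and less RNA per cell cannot be told apart. For POU class 5 factor 1, and for no other of the 10, every SPZ_EJ library lay above every HGC library, a separation shown by 35.4% of the 21375 features that passed the filter. Under 3 other scalings of the libraries Gdf9 joined it, making 2. Both features with a lower mean had every SPZ_EJ library below every HGC library, as had 29.8% of the 21375 features. Embryonic PABP and hairpin-binding copy B were thus more abundant in the sorted testis cells, and whether their RNA in SPZ_EJ was of an oocyte type was not tested.

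**Figure D1:**
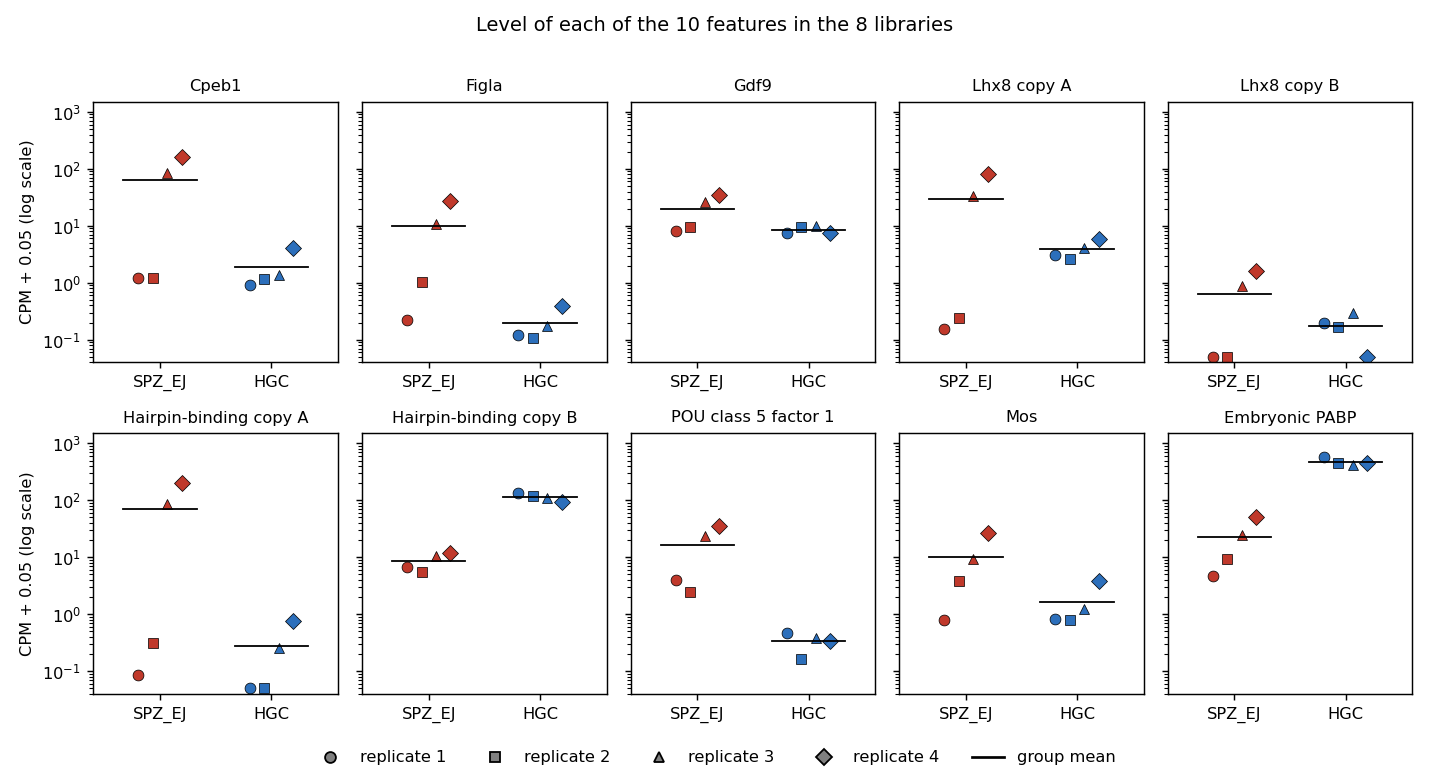
Level of each of the 10 features in the 4 SPZ_EJ libraries (red, left) and the 4 HGC libraries (blue, right), as CPM plus 0.05 on a log axis. Symbols mark replicates 1 to 4 and bars the group means. SPZ_EJ replicates 3 and 4 are the highest SPZ_EJ libraries in all 10 panels, and the groups do not overlap for POU class 5 factor 1, embryonic PABP and hairpin-binding copy B.

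Among the proteins of mRNA control, Cpeb1 had 34, 18, 1532 and 3579 counts in SPZ_EJ replicates 1 to 4, against 12, 19, 32 and 69 counts in HGC replicates 1 to 4. The means were 62.8 ± 78.0 CPM in SPZ_EJ and 1.82 ± 1.47 CPM in HGC, a 34.5-fold ratio (log2 5.11). SPZ_EJ replicates 3 and 4 held 85.5 and 164 CPM, while SPZ_EJ replicates 1 and 2 held 1.18 and 1.17 CPM and lay within the HGC range of 0.857 to 4.01 CPM. Without SPZ_EJ replicates 3 and 4 the log2 ratio was -0.63, a change of sign that rests on HGC replicate 4 (4.01 CPM). The mean of the other HGC libraries was 1.10 CPM, beside 1.18 CPM in SPZ_EJ replicates 1 and 2.

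The other features of the Cpeb family did not show this profile. None of them held 90% or more of its SPZ_EJ level in replicates 3 and 4. Only 2.01% of the 21375 features did so, and such a lack is therefore common to most features. All 3 passed the filter, and edgeR's quasi-likelihood test (calls needed an adjusted p under 0.01 and a log2 fold change beyond 1 in size) found 0 higher and 2 lower in SPZ_EJ, where 32.3% of the 21375 features were called higher and 24.7% lower. Cpeb4 (Saurata1B001953) had 124, 50, 28 and 66 counts in SPZ_EJ, against 1225, 1331, 2209 and 935 counts in HGC, and fell by 4.67 on the log2 scale (SE 0.391, edgeR adjusted p = 3.2e-06). A further Cpeb4 feature (Saurata1B019362) fell by 1.41 (SE 0.268, edgeR adjusted p = 0.00072), a call lost when libraries were scaled by their totals alone (-0.66, adjusted p = 0.14). Cpeb3 (Saurata1B033668) had 52, 24, 18 and 14 counts in SPZ_EJ and 5, 4, 14 and 12 counts in HGC (log2 fold change 1.40, SE 0.60, edgeR adjusted p = 0.055).

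Embryonic PABP, which in frogs binds poly(A) tails in the oocyte and early embryo, had the most counts of the 10 features and the opposite direction to Cpeb1. It had 136, 145, 442 and 1100 counts in SPZ_EJ, against 8002, 7784, 10062 and 7849 counts in HGC. The means were 22.3 ± 20.5 CPM in SPZ_EJ and 474 ± 67.2 CPM in HGC, a level 21.3-fold lower in SPZ_EJ (log2 -4.41). All 4 SPZ_EJ libraries lay below all 4 HGC libraries, yet within SPZ_EJ replicates 3 and 4 (24.7 and 50.3 CPM) were above replicates 1 and 2 (4.73 and 9.42 CPM).

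Of the 5 other poly(A)-binding features, 2 were called higher in SPZ_EJ and 1 lower. PABP1 (Saurata1B014345), a general cytoplasmic poly(A)-binding protein, had 6325, 3826, 3755 and 3353 counts in SPZ_EJ, against 38879, 27054, 54540 and 41820 counts in HGC, and fell by 3.44 on the log2 scale (SE 0.338, edgeR adjusted p = 8.4e-06). A further PABP1 feature (Saurata1B028633) rose by 1.55 (SE 0.300, edgeR adjusted p = 0.00081), a call lost without HGC replicate 1, 2 or 3 (1.32, 1.31 and 1.21, with adjusted p of 0.011 to 0.014). A feature named PABP4 (Saurata1B016499) had 42, 4, 3404 and 9248 counts in SPZ_EJ, against 0, 2, 0 and 15 counts in HGC, and rose by 9.27 (SE 2.19, edgeR adjusted p = 0.0028). Its call was lost without SPZ_EJ replicates 3 and 4 (1.95, edgeR adjusted p = 0.28), which held 99.7% of its SPZ_EJ level. The gene tables of the study list, under *zp3*, an egg coat glycoprotein, a fold change that matches this feature by the DESeq2 test. The name PABP4 in the count table is therefore in doubt, although the tie to *zp3* rests on that fold change alone.

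The machinery that lengthens and shortens poly(A) tails and binds the mRNA cap was measured in 27 tested features. In SPZ_EJ 4 of them were called higher, 8 lower and 15 in neither direction, with a median log2 fold change of -0.23 (0.45 over all 21375 features). Cleavage and polyadenylation specificity factor subunit 7 (Saurata1B033266) fell by 4.92 on the log2 scale (SE 0.323, edgeR adjusted p = 1.5e-06). GLD2 (Saurata1B006030), the cytoplasmic poly(A) polymerase that acts with Cpeb1 in frog oocytes, had 785, 304, 342 and 713 counts in SPZ_EJ and 4162, 5419, 10332 and 4968 counts in HGC, and fell by 3.75 (SE 0.313, edgeR adjusted p = 3.2e-06). The cap-binding protein eIF4E-1A (Saurata1B026588) fell by 4.04 (SE 0.411), and a feature named eIF4E (Saurata1B021342) fell by 2.71 (SE 0.451). A further eIF4E feature (Saurata1B035808) rose by 1.70 (SE 0.419, edgeR adjusted p = 0.0037), and eIF4E type 2 (Saurata1B013627) rose by 2.00 (SE 0.399, edgeR adjusted p = 0.00097). A feature named Musashi homolog 1 (Saurata1B044006), an RNA-binding protein that activates *mos* mRNA in frogs, rose by 3.63 (SE 0.443), with 748, 294, 272 and 266 counts in SPZ_EJ and 26, 19, 22 and 34 counts in HGC. A more abundant feature of the same name (Saurata1B016962) was not called (0.42, SE 0.335, edgeR adjusted p = 0.28).

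The histone RNA hairpin-binding copies went in opposite directions. These proteins bind the stem-loop that ends histone mRNAs, and frogs have an oocyte form beside the general form. Copy A had 1, 4, 1556 and 4343 counts in SPZ_EJ, against 0, 0, 5 and 12 counts in HGC. Its means were 71.4 ± 94.1 CPM in SPZ_EJ and 0.226 ± 0.329 CPM in HGC, a 315-fold ratio (log2 8.30), the largest of the 10 features. SPZ_EJ replicates 3 and 4 held 99.9% of its SPZ_EJ level, and without them the log2 ratio was -0.62. That sign rests on few counts and on HGC replicate 4 (0.698 CPM). The mean of the other HGC libraries was 0.0692 CPM, beside 0.147 CPM in SPZ_EJ replicates 1 and 2.

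Copy B had 192, 85, 185 and 262 counts in SPZ_EJ, against 1878, 2085, 2632 and 1635 counts in HGC. Its means were 8.63 ± 3.03 CPM in SPZ_EJ and 115 ± 16.6 CPM in HGC, a level 13.3-fold lower in SPZ_EJ (log2 -3.73). It was the most even of the 10 features within SPZ_EJ, with 6.68, 5.52, 10.3 and 11.97 CPM.

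The leading copy thus changed between SPZ_EJ libraries. Of the counts of the pair, copy A held 0.518% (exact 95% binomial interval 0.0131 to 2.85%) in SPZ_EJ replicate 1 and 4.49% (1.24 to 11.1%) in replicate 2. In replicate 3 it held 89.4% (87.8 to 90.8%) and in replicate 4 it held 94.3% (93.6 to 94.96%). In HGC it held 0% in replicates 1 and 2 (upper limits 0.196 and 0.177%), 0.190% in replicate 3 and 0.729% in replicate 4. Intervals cover counting error only, since reads amplified without molecular tags are not independent molecules. RSEM divides reads that fit both copies between them, so a share near 0 or 100% is less exact than its interval, and lengths were not at hand to turn counts into molecules.

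**Figure D2:**
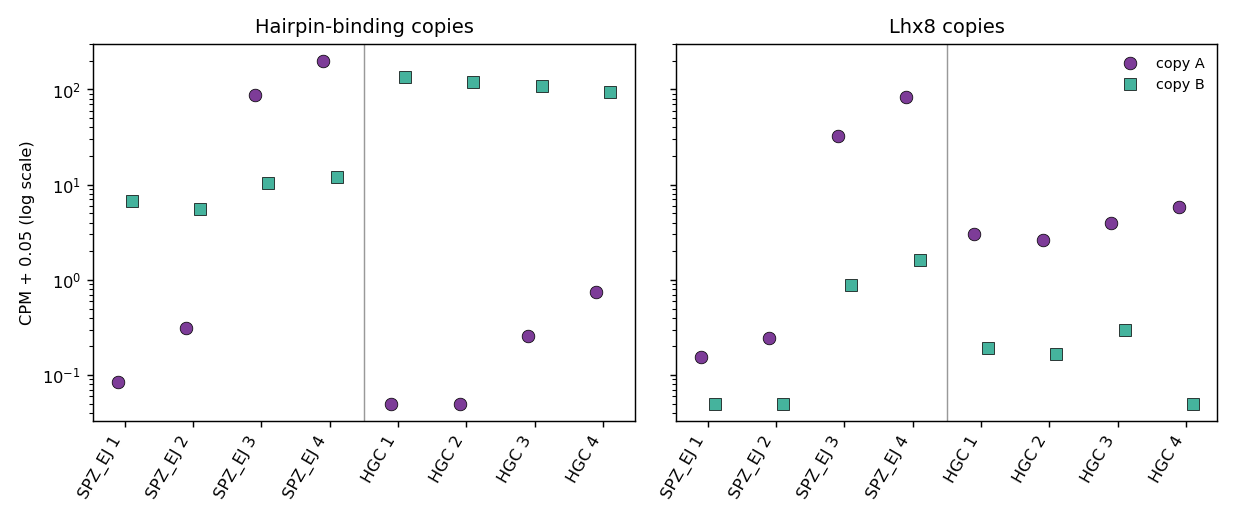
Levels of the hairpin-binding copies (left) and the Lhx8 copies (right) in each SPZ_EJ library and each HGC library, as CPM plus 0.05 on a log axis. Circles are copy A and squares copy B. Hairpin-binding copy A exceeds copy B in SPZ_EJ replicates 3 and 4 and in no other library, while Lhx8 copy A lies above copy B in all 8.

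None of the 3 further features listed by product name under histone mRNA 3' ends was called higher in SPZ_EJ, and 1 was called lower. Whether each of them acts on histone mRNA was not checked. CASP8-associated 2 (Saurata1B006621), a cofactor of histone mRNA processing, had 167, 212, 275 and 390 counts in SPZ_EJ and 902, 1043, 2517 and 1540 counts in HGC, and fell by 2.60 on the log2 scale (SE 0.385, edgeR adjusted p = 0.00014). ERI1 exoribonuclease 2 (Saurata1B023532) had a log2 fold change of -1.22 (edgeR adjusted p = 0.079), which passed the test without SPZ_EJ replicate 4 (-1.97, adjusted p = 0.0035). The remaining feature (Saurata1B028216) was at 0.13 (SE 0.593, edgeR adjusted p = 0.86).

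Among the transcription factors, Figla, which switches on the egg coat genes in mouse oocytes, had 5, 15, 191 and 604 counts in SPZ_EJ, against 1, 1, 3 and 6 counts in HGC. The means were 9.85 ± 12.8 CPM in SPZ_EJ and 0.151 ± 0.135 CPM in HGC, a 65.4-fold ratio (log2 6.03). SPZ_EJ replicates 2, 3 and 4 lay above every HGC library, and replicate 1, with 0.174 CPM, lay within the HGC range of 0.0579 to 0.349 CPM. Without SPZ_EJ replicates 3 and 4 the log2 ratio of Figla was 1.93. The 3 other germline helix-loop-helix features did not pass the filter.

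Lhx8 copy A had 3, 3, 587 and 1809 counts in SPZ_EJ, against 42, 44, 95 and 99 counts in HGC. The means were 28.9 ± 38.99 CPM in SPZ_EJ and 3.81 ± 1.42 CPM in HGC (log2 ratio 2.92). The SPZ_EJ libraries lay on both sides of HGC: replicates 3 and 4 (32.8 and 82.7 CPM) were above all HGC libraries (2.55 to 5.76 CPM), and replicates 1 and 2 (0.104 and 0.195 CPM) were below all of them. The log2 ratio without SPZ_EJ replicates 3 and 4 was -4.67, the opposite direction and larger in size.

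Lhx8 copy B was the rarest of the 10 features, with 0, 0, 15 and 34 counts in SPZ_EJ and 2, 2, 6 and 0 counts in HGC (0.598 ± 0.75 CPM in SPZ_EJ and 0.127 ± 0.102 CPM in HGC). Unlike the hairpin-binding pair, the Lhx8 pair kept 1 leading copy in both groups. Copy A held 97.5% (exact 95% binomial interval 95.9 to 98.6%) and 98.2% (97.4 to 98.7%) of the pair in SPZ_EJ replicates 3 and 4, and 94.1 to 100% in HGC. Over 4 libraries each, the share was 98.9 ± 1.28% in SPZ_EJ and 96.3 ± 2.57% in HGC, and a difference was not tested. SPZ_EJ replicates 1 and 2 entered that mean with 100% of only 3 counts each (interval 29.2 to 100%), so its SD understates the uncertainty. A further feature named Lhx8 had 3 counts over all libraries. Of the 21 LIM homeobox features outside the pair 0 passed the filter, and their summed level was 1.25 to 4.87 CPM in SPZ_EJ and 1.33 to 2.99 CPM in HGC.

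POU class 5 factor 1, whose mammalian relative keeps cells pluripotent and whose fish relative is a maternal activator of the embryonic genome, had 112, 37, 418 and 769 counts in SPZ_EJ, against 6, 2, 8 and 5 counts in HGC. The means were 16.2 ± 15.8 CPM in SPZ_EJ and 0.292 ± 0.131 CPM in HGC, a 55.5-fold ratio (log2 5.79). The lowest SPZ_EJ library (2.40 CPM) was above the highest HGC library (0.429 CPM). SPZ_EJ replicates 3 and 4 again led, and without them the log2 ratio was 3.43.

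In the rest of the POU family 5 of 16 features were tested, of which 1 was called higher in SPZ_EJ and 4 lower. POU class 2 factor 2 (Saurata1B018524) had 11, 40, 32 and 14 counts in SPZ_EJ, against 1333, 823, 2173 and 1165 counts in HGC, and fell by 5.83 on the log2 scale (SE 0.62, edgeR adjusted p = 1.4e-05). POU class 2 factor 3 (Saurata1B048081) fell by 4.62 (SE 0.779) and POU class 6 factor 1 (Saurata1B003360) by 3.86 (SE 0.425). A further POU class 2 factor 2 feature (Saurata1B001195) rose by 4.69 (SE 0.693, edgeR adjusted p = 0.00013) and was even over SPZ_EJ, with 261, 165, 244 and 170 counts there and 10, 10, 1 and 5 counts in HGC.

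The ligand Gdf9 differed least between the groups. It had 232, 144, 466 and 767 counts in SPZ_EJ, against 102, 161, 238 and 129 counts in HGC, with means of 19.6 ± 13.1 CPM in SPZ_EJ and 8.50 ± 1.3 CPM in HGC (log2 ratio 1.21). After TMM scaling SPZ_EJ replicates 1 and 2 (8.07 and 9.36 CPM) lay within the HGC range of 7.29 to 9.88 CPM, and without replicates 3 and 4 the log2 ratio was 0.037. That overlap depends on the scaling, since under the other scalings every SPZ_EJ library of Gdf9 lay above every HGC library. Of 6 GDF and BMP features tested, 1 was called higher and 1 lower in SPZ_EJ. BMP4 (Saurata1B043284) rose by 2.46 on the log2 scale (SE 0.663, edgeR adjusted p = 0.0062). BMP2 (Saurata1B001017) fell by 2.82 (SE 0.645, edgeR adjusted p = 0.0023), a call lost with library totals as the scale (-2.02, adjusted p = 0.022). BMP7 (Saurata1B053348) had a log2 fold change of -1.34 (edgeR adjusted p = 0.11), and BMP1 (Saurata1B038441), a protease by function, one of 0.87 (adjusted p = 0.020), which was called higher with library totals (1.65, adjusted p = 0.0027) or the upper quartile (1.22, adjusted p = 0.0028) as the scale.

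The kinase Mos had 21, 58, 167 and 590 counts in SPZ_EJ, against 11, 13, 28 and 64 counts in HGC. The means were 10.2 ± 11.7 CPM in SPZ_EJ and 1.61 ± 1.42 CPM in HGC (log2 ratio 2.67). SPZ_EJ replicates 2, 3 and 4 (3.77, 9.32 and 27.0 CPM) lay above every HGC library, although replicate 2 exceeded HGC replicate 4 (3.72 CPM) by little. After TMM scaling SPZ_EJ replicate 1 (0.731 CPM) was the lowest of all 8 libraries, just below HGC replicate 2 (0.752 CPM). That order depends on the scaling: SPZ_EJ replicate 1 had 21 of 17693614 counts, and HGC replicate 1 had 11 of 20666265. Without SPZ_EJ replicates 3 and 4 the log2 ratio of Mos was 0.49.

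The features listed by name under the Mos, MAPK and meiotic arrest pathway moved in both directions. Of 14 features tested, 4 were called higher and 6 lower in SPZ_EJ. Those called lower include ribosomal S6 kinase alpha-4 (Saurata1B045560) and alpha-5 (Saurata1B007427), and whether every listed feature acts with Mos was not checked. MAPK3 (Saurata1B046163), a kinase at the end of the Mos cascade, rose by 1.85 on the log2 scale (SE 0.287, edgeR adjusted p = 0.00019), and Mek1 (Saurata1B040298), which Mos phosphorylates, fell by 2.24 (SE 0.621, adjusted p = 0.0073). M-phase inducer phosphatase 1 (Saurata1B021521) fell by 4.29 (SE 0.443) and cyclin B3 (Saurata1B014106) by 4.47 (SE 0.386).

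At least 90% of the SPZ_EJ level lay in replicates 3 and 4 for 2 of the 14 tested features, Wee1 kinase 2 and cyclin B1, and for the untested cyclin B2. The share was 2.01% over the 21375 features that passed the filter. Wee1 kinase 2 and cyclin B2 are named for that reason. Cyclin B2 (Saurata1B009529) had 0, 4, 856 and 2291 counts in SPZ_EJ, against 1, 2, 1 and 16 counts in HGC, and did not pass the filter. Wee1 kinase 2 (Saurata1B038145), an oocyte kinase that holds meiosis in mammals, had 48, 5, 1038 and 2708 counts in SPZ_EJ and 84, 21, 72 and 36 counts in HGC (log2 fold change 3.90, SE 1.35, edgeR adjusted p = 0.022). It was called higher by the DESeq2 test (3.76, adjusted p = 0.0019) and with library totals as the scale (4.82, edgeR adjusted p = 0.0047). Calls were also gained without the filter and without SPZ_EJ replicate 1 or 2, but not in the other settings. Cyclin B1 (Saurata1B006100) was below HGC in every SPZ_EJ library, as embryonic PABP was. It had 852, 1177, 9086 and 22848 counts in SPZ_EJ, against 54902, 55010, 55197 and 35810 counts in HGC (log2 fold change -2.79, SE 0.887, edgeR adjusted p = 0.015), and was called lower without SPZ_EJ replicates 3 and 4 (-5.68, adjusted p = 9.1e-05). The DESeq2 test (-2.94, adjusted p = 0.00090) and DESeq2 size factors (-2.80, edgeR adjusted p = 0.0095) also called it lower. So did the fits without the filter and without SPZ_EJ replicate 1 or 4, while the other settings did not.

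Over the families and pathways together, 118 features were listed and 63 tested. In SPZ_EJ 12 (19.0%) were called higher and 23 (36.5%) lower, beside 32.3% and 24.7% of all features, and their median log2 fold change was -0.73. Scaling by library totals raised the median of all features by 0.73 and gave 16 higher and 17 lower in place of 12 and 23. The lists were drawn up with results of these libraries known.

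**Figure D3:**
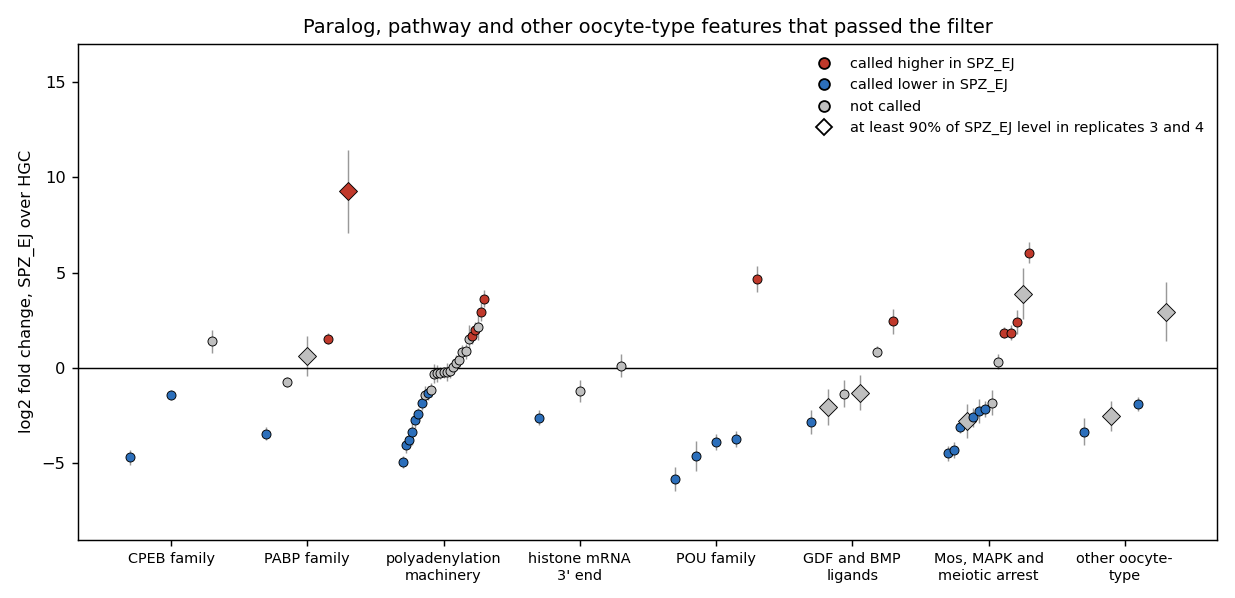
Fold change (log2, SPZ_EJ over HGC, bars SE) of the paralog, pathway and other oocyte-type features that passed the filter, 1 point per feature in each list. Deleted in azoospermia-like is drawn in both the polyadenylation machinery and the other oocyte-type list. Red points were called higher in SPZ_EJ (12 in the families and pathways), blue points lower (23) and grey points were not called. Diamonds are features with at least 90% of their SPZ_EJ level in replicates 3 and 4, and 1 of them, the feature named PABP4, was called higher.

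The 10 features shared an uneven spread over the sperm pools more than a direction against HGC. In all 10, both SPZ_EJ replicates 3 and 4 were above both replicates 1 and 2, an order found in 21.3% of the 21375 features, and replicate 4 was the highest. For 6 of the 10, at least 90% of the summed SPZ_EJ level lay in replicates 3 and 4, as for 2.01% of the 21375 features that passed the filter. Of the 7 members that passed it, 3 did so. Over the 62553 features with at least 20 counts and SPZ_EJ counts above 0, which include all 10, the share was 4.64%. Those 6 were Lhx8 copy B (100%), hairpin-binding copy A (99.9%), Lhx8 copy A (99.7%), Cpeb1 (99.1%), Figla (97.1%) and POU class 5 factor 1 (90.3%). Mos held 89.0% there, embryonic PABP 84.1%, Gdf9 77.8% and hairpin-binding copy B 64.6%. The median share over the 21375 features was 50.04%. The 10 features were chosen on these libraries, so these shares are not a test of the pattern. Leaving out SPZ_EJ replicate 4 moved the log2 ratio to 4.00 for Cpeb1, 4.71 for Figla, 1.53 and 1.14 for Lhx8 copies A and B, 7.003 for hairpin-binding copy A, 5.08 for POU class 5 factor 1, 1.52 for Mos and -5.20 for embryonic PABP. Leaving out HGC replicate 4 moved it to 5.84 for Cpeb1, 6.86 for Figla, 10.01 for hairpin-binding copy A and 3.501 for Mos.

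**Figure D4:**
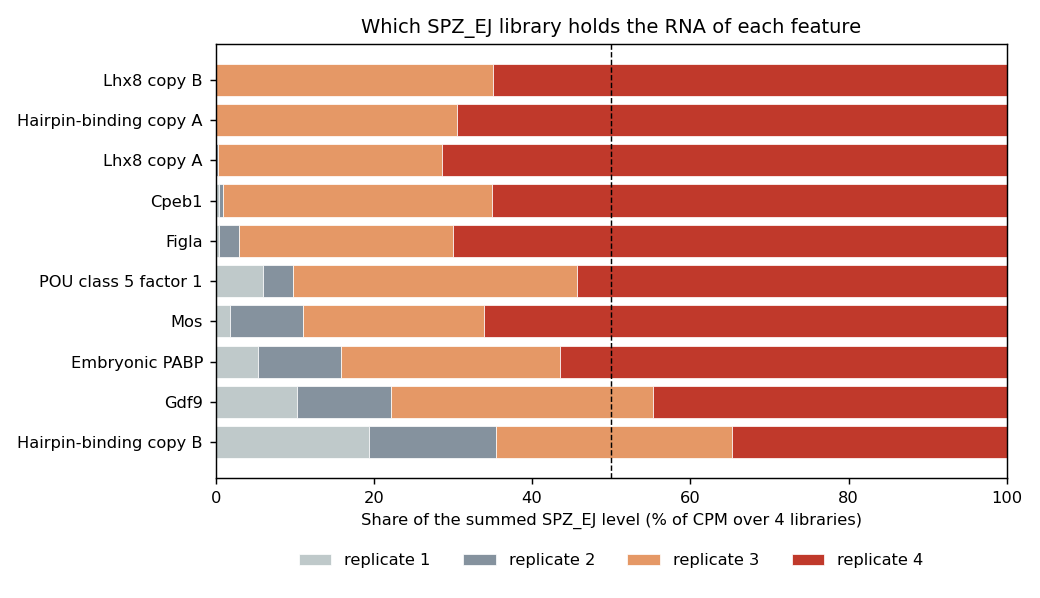
Share of the summed SPZ_EJ level (CPM over 4 libraries) held by each SPZ_EJ replicate, for each of the 10 features, ordered from 100% (Lhx8 copy B) to 64.6% (hairpin-binding copy B) in replicates 3 and 4. The dashed line at 50% is the share that even libraries would give.

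Replicate 4 exceeded replicate 3 in all 10, by factors that differed between features. The ratio was 1.51 to 2.59 (median 2.10) over the 6 features with at least 90% in these libraries, and 1.16 (hairpin-binding copy B) to 2.89 (Mos) over all 10. Among all features that passed the filter the quartiles of this ratio were 0.708, 1.00 and 1.47. The ratio was 2.23 for the feature named PABP4, 2.19 for cyclin B2, 2.14 for Wee1 kinase 2, 2.06 for cyclin B1, and 2.11 for NANOG and for maternal embryonic leucine zipper kinase. Other listed features with at least 90% in replicates 3 and 4 had lower ratios, namely 1.64 for a BMP7 feature (Saurata1B031776), 1.18 for a BMP2 feature (Saurata1B026334) and 1.09 for a further PABP4 feature (Saurata1B026108).

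The HGC libraries differed too. Cpeb1, Figla, Lhx8 copy A, hairpin-binding copy A and Mos, 5 of the 10, were highest in HGC replicate 4, at 3.66, 4.12, 1.82, 10.1 and 4.13 times the mean of the other HGC libraries. For all features that passed the filter the quartiles of that ratio were 0.719, 0.972 and 1.48. The feature named PABP4 and cyclin B2 were also highest there, with 15 of 17 and 16 of 20 HGC counts. Red blood cell markers summed to 9.55 to 26.5 CPM in SPZ_EJ, and to 682 CPM in HGC replicate 4 and 23.2 to 168 CPM in the other HGC libraries, and their part in these values was not tested. Gdf9, POU class 5 factor 1, embryonic PABP and hairpin-binding copy B were at 0.849, 0.995, 0.951 and 0.783 times the other HGC libraries in replicate 4, and Lhx8 copy B had 0 counts there.

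Other oocyte-type features were sought in the product names. Of 6 found by product name, 4 were tested. By edgeR 0 of these were called higher in SPZ_EJ and 2 lower, and by DESeq2 0 higher and 3 lower (0 higher also at an unadjusted p below 0.05 in both). This list leaves out Wee1 kinase 2 and the feature named PABP4, which was tied to *zp3* by its fold change alone and which was called higher. The study also describes a further egg coat transcript as highly upregulated in SPZ_EJ. That transcript is not among the features named here. The count of 0 called higher therefore covers the 4 tested features and not oocyte genes at large. NANOG (Saurata1B011952), a maternal factor in fish, had 3, 6, 2618 and 6731 counts in SPZ_EJ, against 167, 287, 243 and 333 counts in HGC, and its SPZ_EJ libraries lay on both sides of HGC, as those of Lhx8 copy A did. Its log2 fold change was 2.97 (SE 1.53, edgeR adjusted p = 0.11), and it turned round without SPZ_EJ replicates 3 and 4 (-5.87, adjusted p = 0.00022). Deleted in azoospermia-like (Saurata1B020888), a translational activator of germ cells of both sexes, fell by 3.33 (SE 0.704, edgeR adjusted p = 0.0014). This feature was also counted among the polyadenylation machinery features called lower, so the lists overlap. Oocyte zinc finger 19 (Saurata1B037852) fell by 1.88 (SE 0.362, edgeR adjusted p = 0.00076), a call lost with library totals as the scale (-1.10, adjusted p = 0.066). Maternal embryonic leucine zipper kinase (Saurata1B006549) was at -2.51 (SE 0.765, edgeR adjusted p = 0.012), with 113, 30, 362 and 931 counts in SPZ_EJ and 1140, 1836, 2749 and 1531 counts in HGC.

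The summed levels of markers of other cells did not run in the pool order of these features. The summed level of 11 features listed by name as markers of the somatic cells of the ovarian follicle was 13.4, 14.5, 11.3 and 9.92 CPM in SPZ_EJ replicates 1 to 4, and 0.868 to 3.08 CPM in HGC. Only 2 of the 11 passed the filter, and whether these genes mark the ovary apart from the testis was not tested. Aromatase (Saurata1B056325), the enzyme that makes estrogen and a defining marker of that list, had 349, 138, 150 and 94 counts in SPZ_EJ and 8, 0, 2 and 16 counts in HGC. With a mean of 8.44 CPM in SPZ_EJ, aromatase made up most of the mean sum of the list there. The sum therefore does not show the pool order of the other features in that list, which was not examined. Leukocyte markers summed to 7351, 5187, 4086 and 2997 CPM in SPZ_EJ replicates 1 to 4. Replicates 3 and 4, in which each of the 10 features was highest within SPZ_EJ, had the least of these markers. Most of the mean leukocyte sum in SPZ_EJ came from the class II gamma chain features Saurata1B048884 (mean 2467 CPM) and Saurata1B047082 (1187 CPM). Saurata1B047082, with a mean of 541 CPM in HGC, also made up most of the sum there. The leukocyte sum therefore mainly reflects these features. The spermatid and flagellum markers were at 349, 699, 851 and 507 CPM in SPZ_EJ replicates 1 to 4. The part of any of these cells in the levels of the 10 features was not tested.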

How the data were processed

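RNA was sequenced in 4 SPZ_EJ and 4 HGC libraries (SMART-seq2, oligo-dT primed, PCR amplified, unstranded). The authors aligned reads with STAR 2.5.3a to an extended seabream annotation and estimated counts per feature with RSEM 1.3.0. The deposited expected counts, whole numbers without normalization, were the only values used. Totals were 15395220 to 30645027 counts a library. Columns were tied to samples through their labels. Features were kept by filterByExpr and libraries scaled by TMM, and SPZ_EJ was tested against HGC with edgeR 4.0.16 (glmQLFit, glmQLFTest) and Benjamini-Hochberg adjustment over 21375 features. SE is the log2 fold change over the square root of F. The p-values measure the spread between pools. The fit was tested on simulated data. Counting intervals are exact (Clopper-Pearson, 95%).

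Alternatives were DESeq2 1.42.0 size factors, library totals and the upper quartile as scale, no filter, the DESeq2 test, the replicate number as a block, and each library left out. Leaving out SPZ_EJ replicates 3 and 4, and the other scales for the overlap of groups, were added after seeing the data.

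The members and lists were chosen with earlier results of these data known. Lists were formed by product name, and 1 product was removed from the leukocyte list after its values were seen. Named were all 10 members, the 3 most abundant tested features of each list (6 for the other oocyte-type list) and the 8 most like the members' mean profile. Other named features were chosen after their values were seen. *zp3* was tied to its feature by the fold change of the DESeq2 default test. Tables and figures were made in Python 3.11.15 (pandas 2.3.3, scipy 1.17.1, numpy 2.4.6, matplotlib 3.10.9), and the fits in R 4.3.3. Values of 1 listed feature are not reported here.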

Additional observations from a re-analysis of the deposited data

Results flagged for a closer look

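Dixon's ratio was computed in 84 groups of 4 libraries, and 5 exceeded its 95% critical value. The groups covered the 10 features, the other named features and those most like the members' mean profile. Chance alone flags about 1 in 20 groups.

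A lone high HGC library was found for 2 of the 10 features, in both cases replicate 4. Cpeb1 stood at 4.01 CPM there, with a median of 1.10 CPM in the other HGC libraries. Mos stood at 3.72 CPM in the same library, with a median of 0.786 CPM in the others.

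The other 3 are features of the lists. In SPZ_EJ replicate 4, POU class 2 factor 3 (Saurata1B048081) was at 3.88 CPM beside a median of 0.670 CPM in the other SPZ_EJ libraries, and BMP2 (Saurata1B001017) was at 1.55 CPM beside 0.390 CPM. In HGC replicate 1, M-phase inducer phosphatase 1 (Saurata1B021521) was at 2137 CPM beside 1250.5 CPM.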

How the results depend on the processing

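Without SPZ_EJ replicates 3 and 4 the log2 ratio turned to -0.63 for Cpeb1, -4.67 for Lhx8 copy A and -0.62 for hairpin-binding copy A. For Cpeb1 and hairpin-binding copy A the turn rested on HGC replicate 4. For Lhx8 copy A, SPZ_EJ replicates 1 and 2 lay below every HGC library. Without the same SPZ_EJ libraries the log2 fold change of NANOG turned to -5.87, and the other oocyte-type features called lower in SPZ_EJ numbered 4 in place of 2. With DESeq2 size factors, library totals or the upper quartile as scale, 2 of the 10 features had all SPZ_EJ above all HGC libraries, in place of 1. Of 129 member ratios, 120 moved by less than the spread between libraries, 6 by more and 3 turned round. Family and pathway features called higher numbered 7 without the expression filter, in place of 12, and 7 to 14 with a library left out (7 without HGC replicate 1 or 3, 8 without HGC replicate 2). Other oocyte-type features called higher numbered 1 without the filter, in place of 0, and those called lower 1 with library totals. With the replicate number as a block (replicate block), 11 family and pathway features were called higher and 22 lower. Deviations of same-numbered libraries from their group means correlated at 0.117, 0.015, 0.012 and 0.082, and those of unlike number at -0.148 to 0.155. These values cannot settle whether the same males gave both pools, since deviations in different cell types need not correlate. Of the 8 features most like the members' mean profile, 3 were shared by Spearman's rho and 5 with a prior count of 0.5. The causes of these shifts were not tested. With 4 pools a group and few HGC counts for Figla, Lhx8 copy B and hairpin-binding copy A, ratios of those features are imprecise.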

Other observations

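The features whose levels ran most like the mean profile of 7 of the 10 over the 8 libraries were not named for the oocyte. That mean joins features high and low in HGC, so likeness to it is not likeness to each of the 10. Each of 21368 features was ranked by Pearson's r of its log2 CPM (prior count of 2) with the mean profile of the 7 features that passed the filter, and the points share 8 libraries and their depths. Aquaporin-3 (Saurata1B038272), a channel for water and glycerol, had the highest r, 0.992, with 0, 1, 235 and 687 counts in SPZ_EJ replicates 1 to 4, against 11, 22, 23 and 36 counts in HGC. Gelsolin (Saurata1B014739), which cuts actin filaments, followed at 0.989. Nuclear autoantigenic sperm protein (Saurata1B049256), a histone chaperone, was at 0.988, with 504, 240, 2369 and 5116 counts in SPZ_EJ and 709, 702, 1061 and 884 counts in HGC.

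An elongation factor 1-alpha feature (Saurata1B037307, r = 0.985), which carries tRNA to the ribosome, had 0, 4, 302 and 1002 counts in SPZ_EJ and 29, 31, 35 and 37 counts in HGC. Long-chain fatty acid ligase 5 (Saurata1B047622, r = 0.983) had 2, 0, 2028 and 5121 counts in SPZ_EJ and 19, 19, 62 and 58 counts in HGC. Ephrin type-B receptor 3 (Saurata1B052799) was at 0.980, and Saurata1B038804 and Saurata1B002431, which have no known product, were at 0.986 and 0.984. Of these 8, Saurata1B038804 had the highest mean in SPZ_EJ, 116 CPM, with 0, 5, 2463 and 7155 in SPZ_EJ and 38, 24, 67 and 56 in HGC.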
